A study of Mus musculus with 64 samples.

Results

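The genes described here were 10 regulators of the adipocyte state, chosen by name: the nuclear receptors *Pparg*, *Ppara*, *Ppard*, *Rxra*, *Nr1h3* and *Esrra*, the DNA-binding factors *Cebpa*, *Ebf1* and *Klf15*, and the receptor corepressor *Nrip1*. They were 10 of the 52636 genes in the count table, and all 10 were among the 20249 genes that had enough counts to be tested. The tissues were brown fat (BAT) and the epididymal white fat (eWAT) of male mice 2 to 4 months old, fed chow and kept at room temperature, and total RNA was sequenced after depletion of ribosomal RNA. The FANKO mice carried floxed *Nampt* alleles (exon 3) and the Cre recombinase under the *Adiponectin* promoter, and the WT mice were their littermates without Cre. Each depot and genotype was sampled at zeitgeber time (ZT) 6, 10, 18 and 22, where lights came on at ZT 0. The 16 groups held 4 samples each, which made 64 in all. *Nampt* encodes the enzyme that makes nicotinamide mononucleotide in the salvage route to NAD+. The *Adiponectin* promoter is active in brown and white adipocytes, so other cells of the tissue kept the gene.

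The peroxisome proliferator-activated receptors bind DNA as partners of the retinoid X receptor encoded by *Rxra* and are switched on by fatty acids and their derivatives. PPARγ, from *Pparg*, and C/EBPα, from *Cebpa*, maintain each other's transcription and most of the genes that make a fat cell, and EBF1 acts upstream of both during differentiation. PPARα and ERRα, from *Ppara* and *Esrra*, are best known for fatty acid oxidation and mitochondrial genes, which brown fat uses for heat, while RIP140, from *Nrip1*, represses the same genes in white fat. LXRα, from *Nr1h3*, senses sterols, and KLF15 follows glucocorticoids, fasting and the time of day and controls amino acid and glucose genes.

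Libraries held 6117343 to 30544847 counted read pairs (median 15826651). Levels are given as CPM, a gene's count scaled by library size and TMM factor, or as CPM per kilobase (kb) of exon where genes are compared with each other. *Nampt* itself had a median of 702 CPM in WT BAT and 143 CPM in FANKO BAT (log2 difference -2.31, SE 0.07). In eWAT the medians were 149 and 114 CPM (log2 difference -0.50, SE 0.07). The eWAT difference was uneven over time, with WT and FANKO means of 119 and 117 CPM at ZT 6 and of 250 and 116 CPM at ZT 18. These counts cover all exons of *Nampt*, so transcript without the floxed exon and transcript of other cells would be included. They do not measure how much working transcript was lost. The paper reports markedly reduced NAD+ in both depots of FANKO mice. Replicate 4 of WT BAT at ZT 18 and replicate 4 of WT eWAT at ZT 18 stood apart from the other 3 samples of their groups, with a root mean square log2 distance of 0.537 and 0.535 over 11068 genes where the next highest was 0.363. The former also had the highest sum of skeletal muscle markers, 457 CPM. Results that these libraries decide are given with and without them. The makeup of the tissue differed between genotypes. The summed level of 8 macrophage markers was 105 to 200 CPM in WT BAT and 569 to 1374 CPM in FANKO BAT, with 7 markers higher and 1 lower. Lymphocyte markers were higher in FANKO BAT for 5 of 5, stroma markers for 7 of 7, and endothelium markers were lower for 4 of 5. With library size alone 1 endothelium marker was higher and 0 were lower there, and 2 of 6 adipocyte markers were lower in place of 5. In eWAT 7 of 7 stroma and 4 of 4 mesothelium markers were lower in FANKO, the macrophage sums overlapped (616 to 944 against 602 to 1087 CPM), and 5 of 6 adipocyte markers were lower in each depot. The summed adipocyte level had a median of 4426 CPM (WT) and 2603 CPM (FANKO) in BAT, and of 9344 and 6053 CPM in eWAT. The depot labels matched the markers of brown adipocytes, whose sum was 1340 CPM or more in every BAT sample and 107 CPM or less in every eWAT sample. That sum also differed between genotypes with no overlap, at 5036 to 11145 CPM in WT BAT and 1340 to 3661 CPM in FANKO BAT, and at 12.6 to 36.8 CPM in WT eWAT and 49.7 to 107 CPM in FANKO eWAT. In BAT most of it was *Ucp1* (WT and FANKO medians 4303 and 1304 CPM) and *Cidea* (2092 and 824 CPM). The BAT medians of *Zic1* and *Elovl3* were not lower in FANKO, and those of the other markers were. In eWAT most of the rise was *Cidea* (4.13 and 40.6 CPM), and *Ucp1* stayed low (0.213 and 0.825 CPM). There the *Dio2* and *Ppargc1a* medians were lower in FANKO, and those of *Cox8b*, *Elovl3* and *Fabp3* higher. In bulk tissue, fewer cells of a type and less RNA per cell cannot be told apart.

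The most abundant of the 10 regulators per length were *Pparg* and *Cebpa* in all 4 combinations of depot and genotype. In WT BAT their mean levels were 133.3 and 133.2 CPM per kb, followed by *Ppara* at 56.8. In FANKO BAT *Pparg* was at 86.3 and *Cebpa* at 71.2, and *Ppara* was sixth with 14.7. In WT eWAT *Cebpa* led with 149 CPM per kb before *Pparg* with 86.2 and *Rxra* with 33.9, whereas *Ppara* was ninth with 2.60. In FANKO eWAT *Cebpa* was at 141, *Pparg* at 88.7 and *Ppara* at 4.16. *Ppard*, which encodes the receptor that is found in nearly all tissues, was last everywhere, at 1.09 to 1.26 CPM per kb. *Klf15* had 14.99 CPM per kb in WT BAT and 2.02 in FANKO BAT, where only *Ppard* (1.15) was lower.

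**Figure D1:**
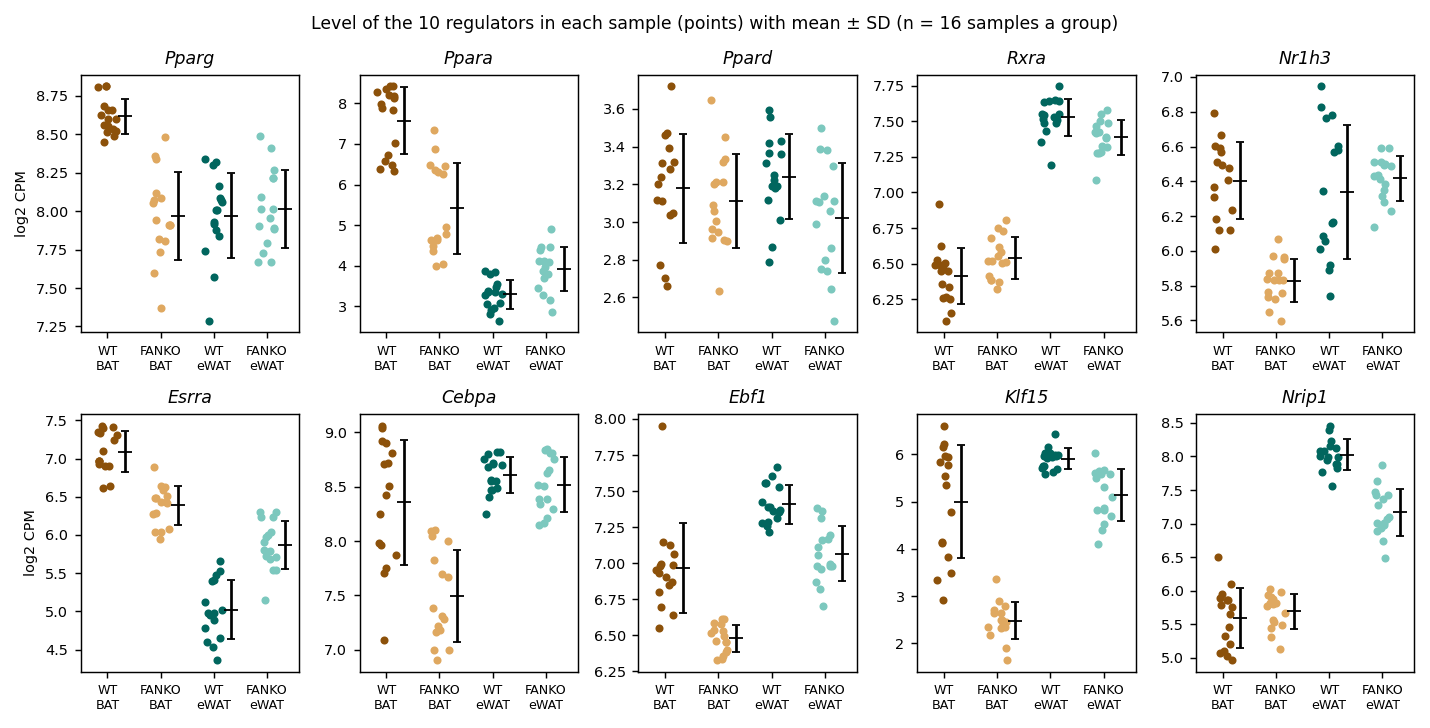
Level of each of the 10 regulators in log2 CPM in every sample (points), with the mean and SD of the 16 samples of each depot and genotype. *Ppara* and *Esrra* were highest in WT BAT, *Rxra* and *Nrip1* were higher in eWAT than in BAT, and *Klf15* in FANKO BAT lay between 3.01 and 10.1 CPM.

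Of the 3 PPAR genes, *Pparg* gave most of the transcript per length in every group. Its share was 70.8% ± 10.8 (SD, n = 16) in WT BAT and 85.6% ± 7.66 in FANKO BAT, while the share of *Ppara* was 28.5% ± 10.99 and 13.2% ± 7.85. In eWAT *Pparg* took 95.6% ± 0.966 in WT and 94.3% ± 1.55 in FANKO, with *Ppara* at 2.95% ± 0.849 and 4.47% ± 1.58. The *Ppara* share was highest in WT BAT and its spread was largest there.

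**Figure D2:**
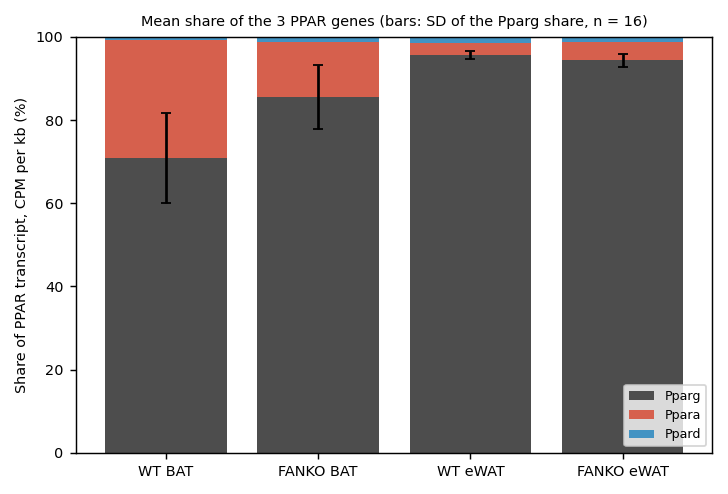
Mean share of *Pparg*, *Ppara* and *Ppard* in the summed CPM per kb of the 3 genes (%), with the SD of the *Pparg* share over 16 samples. The *Ppara* share went from 28.5% (WT) to 13.2% (FANKO) in BAT and from 2.95% to 4.47% in eWAT.

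The depots of WT mice differed most in *Ppara*, *Nrip1* and *Esrra*. *Ppara*, *Esrra* and *Pparg* were higher in BAT, and *Nrip1*, *Rxra*, *Klf15* and *Ebf1* were higher in eWAT. With library size alone, which moved the median of all genes by -0.75, the *Pparg* difference of 0.63 turned to -0.11 (adjusted p = 0.18), and *Cebpa* (-0.94), *Ppard* (-0.80) and *Nr1h3* (-0.67) were called lower in BAT. In this comparison 7 of the 10 genes passed an FDR of 0.01 (edgeR quasi-likelihood test, adjusted over all genes), against 73.7% of all genes tested (32.7% higher and 41.1% lower in BAT), so the count was no larger than the background. In FANKO mice 8 of 10 passed, 2 higher and 6 lower in BAT, against 59.7% of all genes (28.1% higher and 31.6% lower). The differences between depots and between genotypes rest on the same samples and are given side by side, not as separate evidence.

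*Ppara* separated the depots most. It had 80.4 to 343 CPM in WT BAT (median 244) and 6.13 to 14.5 CPM in WT eWAT (median 9.87), with no overlap between the 16 and 16 samples. The log2 difference was 4.41 (SE 0.18, adjusted p = 2.06e-30), or 21.2-fold. In FANKO mice it was 1.56 (SE 0.17, adjusted p = 3.83e-12), and there the samples overlapped, with 15.8 to 163 CPM in BAT and 7.18 to 29.8 CPM in eWAT. *Esrra* followed the same order of groups, WT BAT above FANKO BAT above FANKO eWAT above WT eWAT. Each step between its means on the log2 scale was larger than the SD of either group, but samples of neighbouring groups overlapped. The log2 difference of *Esrra* between depots was 2.05 (SE 0.08) in WT mice and 0.53 (SE 0.08) in FANKO mice.

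*Nrip1*, the corepressor, went the other way. WT BAT had 31.2 to 90.7 CPM (median 52.2) and WT eWAT 188 to 352 CPM (median 256), a log2 difference of -2.41 (SE 0.09, adjusted p = 1.15e-32) with no overlap. *Rxra*, the common partner of the PPARs and LXRα, was also lower in BAT in every sample, by -1.11 (SE 0.05) in WT mice and by -0.84 (SE 0.05) in FANKO mice. *Pparg* had 350 to 449 CPM in WT BAT and 156 to 323 CPM in WT eWAT, which did not overlap (log2 difference 0.63, SE 0.07), but 165 to 357 CPM in FANKO BAT and 203 to 359 CPM in FANKO eWAT, which overlapped (log2 difference -0.04, SE 0.07, adjusted p = 0.66). Samples did not overlap between depots for 5 of the 10 genes in WT mice (*Pparg*, *Ppara*, *Rxra*, *Esrra* and *Nrip1*; 27.1% of all genes) and for 6 in FANKO mice (*Cebpa*, *Rxra*, *Nr1h3*, *Nrip1*, *Klf15* and *Ebf1*; 14.2% of all genes).

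In BAT, 7 of the 10 regulators were lower in FANKO than in WT mice, and none was higher. Over all genes tested, 67.0% passed the same test and 33.9% were lower. The median log2 difference of the 10 genes was -0.61, where that of all genes was 0.00. *Klf15* (log2 difference -2.74) and *Ppara* (-2.21) fell most, *Cebpa*, *Esrra*, *Pparg*, *Nr1h3* and *Ebf1* fell with log2 differences of -0.90 to -0.52, and *Rxra*, *Nrip1* and *Ppard* did not pass. In the same samples macrophage, lymphocyte and stroma markers rose, adipocyte and endothelium markers fell, and 4 of 8 brown adipocyte markers were lower and none higher. The part of these markers in the differences was not tested.

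Among the PPARs, *Ppara* fell from a median of 244 CPM in WT BAT to 29.2 CPM in FANKO BAT (15.8 to 163 CPM), 4.62-fold by the fit (SE 0.16 on the log2 scale, adjusted p = 1.57e-18). At each time point all 4 FANKO samples lay below all 4 WT samples, although the groups overlapped when the 4 times were pooled. The same held for *Pparg*, *Klf15* and *Ebf1*. Groups of 4 did not overlap in BAT for 50.3% of all genes at ZT 6, for 52.4% and 41.7% at ZT 10 and ZT 18, and for 48.6% at ZT 22. *Pparg* had 165 to 357 CPM in FANKO BAT (median 243) against 350 to 449 CPM in WT BAT (median 388), a log2 difference of -0.63 (SE 0.07, adjusted p = 2.76e-11). *Ppard* had medians of 9.20 and 8.29 CPM (log2 difference -0.07, SE 0.09, adjusted p = 0.46). Their partner *Rxra* had medians of 87.2 and 91.7 CPM (log2 difference 0.12, SE 0.05, adjusted p = 0.030). Without the 2 libraries that stood apart, *Rxra* passed at 0.15 (adjusted p = 0.0034).

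*Nr1h3*, the sterol sensor, had 64.4 to 111 CPM in WT BAT (median 86.8) and 48.3 to 66.8 CPM in FANKO BAT (median 56.9), a log2 difference of -0.58 (SE 0.05, adjusted p = 5.40e-15). The groups overlapped by 1 sample each, WT replicate 3 and FANKO replicate 4 at ZT 22. LXRα is also made by macrophages, whose markers were higher in the same FANKO samples. *Esrra* had 97.5 to 173 CPM (median 131) and 61.4 to 119 CPM (median 86.3), a log2 difference of -0.69 (SE 0.08, adjusted p = 5.24e-12). *Nrip1*, which represses genes that ERRα activates, had medians of 52.2 and 55.2 CPM (log2 difference 0.08, SE 0.09, adjusted p = 0.44).

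*Klf15* was the gene with the largest difference among the 10. It had 7.41 to 97.4 CPM in WT BAT (median 43.4) and 3.01 to 10.1 CPM in FANKO BAT (median 5.43), a 6.68-fold difference (log2 -2.74, SE 0.18, adjusted p = 9.93e-21). The pooled groups overlapped by the WT samples at ZT 22, of which 2 lay at or below 10.1 CPM. *Cebpa* had 136 to 535 CPM (median 353) and 120 to 275 CPM (median 163), a log2 difference of -0.90 (SE 0.09, adjusted p = 3.62e-13). *Ebf1* had 93.5 to 248 CPM (median 123) and 80.3 to 97.9 CPM (median 89.1), a log2 difference of -0.52 (SE 0.07, adjusted p = 3.56e-10). The highest *Ebf1* value, 248 CPM, was that of WT BAT replicate 4 at ZT 18, and the next in its group was 139 CPM.

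The size of the BAT differences depended on scaling. Mitochondrial transcripts took a median of 24.6% of counts in WT BAT and 14.7% in FANKO BAT, and scaling by library size alone moved the median of all genes by 0.59. Under it *Klf15* (-2.19), *Ppara* (-1.65) and *Cebpa* (-0.33) were still called lower, *Pparg* (-0.04) and *Esrra* (-0.11) no longer passed, *Nr1h3* and *Ebf1* changed sign without passing, and *Rxra* (0.71), *Nrip1* (0.66) and *Ppard* (0.52) were called higher, so that 3 were higher and 3 lower.

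In eWAT the 10 genes divided. *Esrra* and *Ppara* were higher in FANKO than in WT mice, *Nrip1*, *Klf15* and *Ebf1* were lower, and *Pparg*, *Cebpa*, *Nr1h3*, *Rxra* and *Ppard* did not pass. That was 5 of 10, against 50.3% of all genes tested (27.6% higher and 22.8% lower). No gene of the 10 had WT and FANKO samples without overlap in either depot (22.6% of all genes in BAT and 5.90% in eWAT). In the same eWAT samples stroma and mesothelium markers and 5 of 6 adipocyte markers fell, the summed level of the brown adipocyte markers was higher (2 markers higher and 1 lower), and the median share of mitochondrial transcripts was 6.55% in WT and 10.7% in FANKO. Their part was not tested.

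*Esrra* had 20.5 to 50.5 CPM in WT eWAT (median 31.4) and 35.4 to 78.6 CPM in FANKO eWAT (median 57.9), a log2 difference of 0.83 (SE 0.08, adjusted p = 7.93e-14). It was higher at all 4 time points (log2 0.66 to 1.01), and at each of them the 4 FANKO samples lay above the 4 WT samples. *Nrip1* had 188 to 352 CPM (median 256) and 89.7 to 235 CPM (median 136), a log2 difference of -0.85 (SE 0.09, adjusted p = 5.79e-13), with the 4 FANKO samples below the 4 WT samples at each time. Over all genes, groups of 4 did not overlap in eWAT for 35.7% at ZT 6, for 38.0% and 21.7% at ZT 10 and ZT 18, and for 29.3% at ZT 22. The activator of mitochondrial genes was higher and the corepressor lower in the same tissue, and for both the median FANKO level lay between those of WT eWAT and WT BAT. *Esrra* shares 73 bases of exon with *Trmt112* on the opposite strand, and whether strand was used in the counting is not given in the sources used here.

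*Ppara* had 6.13 to 14.5 CPM in WT eWAT (median 9.87) and 7.18 to 29.8 CPM in FANKO eWAT (median 16.1), a log2 difference of 0.64 (SE 0.18, adjusted p = 0.0015). This call did not hold without replicate 2 (0.61, adjusted p = 0.018), without replicate 3 (0.63, adjusted p = 0.013) or with library size alone (0.39, adjusted p = 0.050). *Klf15* had 47.5 to 86.6 CPM (median 61.9) and 16.98 to 65.1 CPM (median 36.9), a log2 difference of -0.76 (SE 0.16, adjusted p = 3.41e-05). *Ebf1* had 149 to 203.5 CPM (median 166) and 104 to 166 CPM (median 130), a log2 difference of -0.35 (SE 0.07, adjusted p = 7.29e-06). *Klf15* and *Ebf1* were the genes called lower in both depots.

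*Pparg* and *Cebpa*, the pair at the centre of the adipocyte program, had near equal levels in WT and FANKO eWAT. *Pparg* had medians of 257 and 253 CPM (log2 difference 0.04, SE 0.07, adjusted p = 0.66) and *Cebpa* of 395 and 365 CPM (log2 difference -0.09, SE 0.09, adjusted p = 0.39). *Nr1h3* had medians of 76.3 and 86.4 CPM (log2 difference 0.07, SE 0.05, adjusted p = 0.22). *Rxra* (-0.14, adjusted p = 0.015) and *Ppard* (-0.22, adjusted p = 0.024) missed the threshold. *Rxra* passed without the 2 libraries that stood apart (-0.16, adjusted p = 0.0021) and both passed with DESeq2. With library size alone 7 of 10 passed, of which 1 was higher and 6 were lower.

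**Figure D3:**
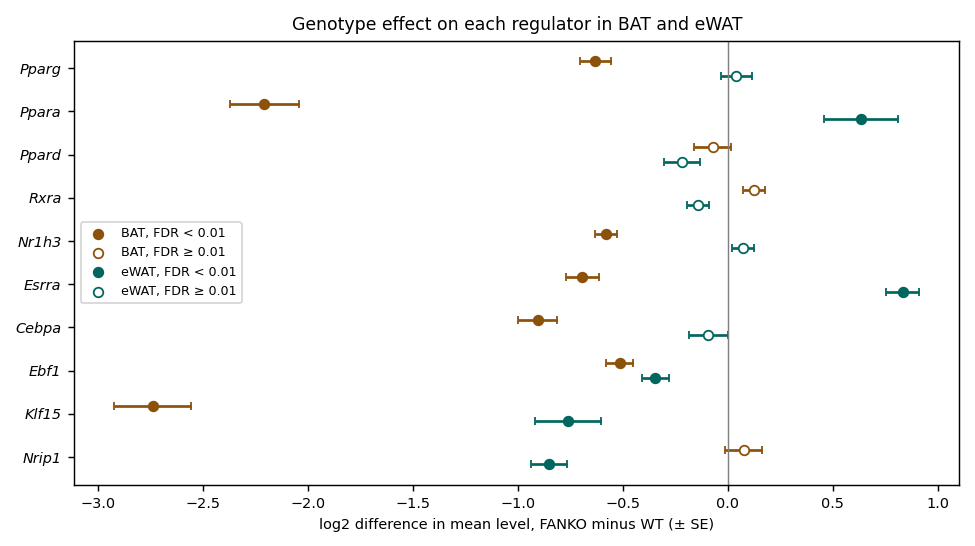
Log2 difference in mean level between FANKO and WT mice for each regulator (points, with SE), in BAT and eWAT, with filled points for an FDR below 0.01. In BAT all 7 filled points lie below 0, and in eWAT *Esrra* (0.83) and *Ppara* (0.64) lie above 0 while *Nrip1* (-0.85), *Klf15* (-0.76) and *Ebf1* (-0.35) lie below.

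The genotype effect differed between the depots for 8 of the 10 genes, tested directly, against 64.3% of all genes (32.1% lower and 32.2% higher). It was lower in BAT than in eWAT for *Ppara* (log2 -2.84, SE 0.24), *Klf15* (-1.98, SE 0.24), *Esrra* (-1.53, SE 0.11), *Cebpa* (-0.81, SE 0.13), *Pparg* (-0.67, SE 0.10) and *Nr1h3* (-0.65, SE 0.07). It was higher for *Nrip1* (0.93, SE 0.12) and *Rxra* (0.27, SE 0.07, adjusted p = 0.0011), and the *Rxra* call was lost without replicate 1 (adjusted p = 0.017) or replicate 2 (adjusted p = 0.016). *Esrra* and *Ppara* were called in opposite directions in the 2 depots. With library size alone *Pparg* (0.17), *Nr1h3* (0.18) and *Cebpa* (0.0093) changed sign and did not pass. *Ebf1* (-0.17, SE 0.09, adjusted p = 0.094) and *Ppard* (0.15, SE 0.12, adjusted p = 0.28) did not pass, but with library size alone they did, at 0.65 and 0.98.

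Taken one time point at a time, 25 of 40 combinations of gene and time passed in BAT, all of them lower in FANKO. They were 7 at ZT 6 (48.2% of all genes passed there and 23.9% were lower), 5 at ZT 10 (45.7% and 22.4%), 6 at ZT 18 (44.0% and 22.5%) and 7 at ZT 22 (45.3% and 22.7%). *Ppara*, *Cebpa*, *Nr1h3* and *Klf15* passed at all 4 times, and *Pparg*, *Esrra* and *Ebf1* at 3. In eWAT 13 of 40 passed, 2 at ZT 6 (27.0% of all genes), 3 at ZT 10 (24.5%), 4 at ZT 18 (13.6%) and 4 at ZT 22 (20.6%). *Esrra* passed at all 4 times and *Nrip1* at ZT 10, 18 and 22. *Klf15* passed at ZT 18 (-1.16) and ZT 22 (-1.25), and *Ebf1* at the same times (-0.49 and -0.51). *Nr1h3* was higher at ZT 6 (0.43, adjusted p = 0.0010) and *Ppard* lower at ZT 10 (-0.59, adjusted p = 0.0050). The calls of *Esrra* and *Nr1h3* were higher in FANKO and those of *Nrip1*, *Klf15*, *Ebf1* and *Ppard* lower.

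*Klf15*, *Ppara* and *Pparg* stand for 3 patterns of calls in BAT. These were a large loss with a rhythm called in WT, a large loss with a rhythm called in both genotypes, and a moderate loss with no rhythm called. With every library, no difference of rhythms between genotypes was called for these genes. The WT rhythm call of *Ppara* was lost in several fits that left out a replicate number. The 250 bases before their annotated starts (RefSeq, GRCm38.p6) are shown to set beside these patterns, on the plus strand. Capitals mark the E-box CACGTG for *Klf15* and the nuclear receptor half-site AGGTCA for *Pparg*. The *Ppara* stretch was searched for the E-box, held none and has no capitals. The stretches lie at chr6:90462326-90462575 for *Klf15*, chr15:85735526-85735775 for *Ppara* and chr6:115362099-115362348 for *Pparg*, whose window is the second of 3 in the table. The first *Pparg* window also held a half-site, and the third, at chr6:115421816-115422115, held none of the 6 motifs searched below. Which of these starts is used in BAT or eWAT was not tested.
Klf15: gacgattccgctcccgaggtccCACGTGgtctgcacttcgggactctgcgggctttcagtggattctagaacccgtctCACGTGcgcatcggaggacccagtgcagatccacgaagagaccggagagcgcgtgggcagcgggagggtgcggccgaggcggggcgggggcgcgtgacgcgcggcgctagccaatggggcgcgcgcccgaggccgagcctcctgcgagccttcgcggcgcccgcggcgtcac
Ppara: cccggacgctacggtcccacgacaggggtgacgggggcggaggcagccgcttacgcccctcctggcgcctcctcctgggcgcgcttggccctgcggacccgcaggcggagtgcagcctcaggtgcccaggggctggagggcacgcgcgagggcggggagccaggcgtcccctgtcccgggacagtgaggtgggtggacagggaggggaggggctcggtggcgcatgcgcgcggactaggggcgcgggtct
Pparg: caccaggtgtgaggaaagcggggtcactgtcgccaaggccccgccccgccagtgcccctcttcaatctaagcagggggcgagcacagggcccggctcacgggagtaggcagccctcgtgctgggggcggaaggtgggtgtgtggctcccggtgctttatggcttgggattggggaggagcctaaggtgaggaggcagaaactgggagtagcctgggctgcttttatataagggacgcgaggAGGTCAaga

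Windows of 300 bases, 250 before and 50 after each start, were searched on both strands for 6 motifs. The search covered all 16 windows of the 10 genes and 32851 windows of RefSeq genes. The latter left out 1 chromosome, which holds none of the 10 genes. The *Klf15* window held 3 E-boxes, at 228 to 223 and at 172 to 167 bases before the start and 1 across the start itself. An E-box, to which the clock factors BMAL1 and CLOCK bind, occurred in 7.15% of all windows, and 3 or more in 29 of them (0.0883%). No window of the other 9 genes held one. The half-site AGGTCA (16.3% of all windows) occurred in 2 windows of *Pparg* and 1 of *Rxra*, and the D-box core TTANNTAA (6.0%) in the *Pparg* window shown. The extended half-site TCAAGGTCA (0.423%, each also a half-site), a pair of AGGTCA half-sites in the same direction with 1 base between them (0.0396%, likewise) and the glucocorticoid receptor core ACANNNTGT (6.85%) were in none of the 16 windows, and the *Ppara* window held none of the 6 motifs. A match describes letters and is not a bound site.

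In WT BAT 6 of the 10 regulators had a 24-h rhythm at an FDR of 0.01 (cosine fit, 2 coefficients), against 13.9% of all genes tested, and their fitted peaks fell between 6.2 and 10.97 h. *Klf15* had the largest rhythm, with a peak-to-trough difference of 2.24 on the log2 scale, a peak at 10.97 h and adjusted p = 1.31e-05. *Cebpa* (0.88, peak at 6.2 h), *Nrip1* (0.71, 8.75 h), *Esrra* (0.53, 8.41 h), *Ppara* (1.04, 7.12 h) and *Nr1h3* (0.38, 10.3 h) also passed. With 4 times of sampling the peak hours are estimates from the curve. Leaving out 1 replicate number left 1 to 5 of the 6 calls. *Ppara* was lost without replicate 1 (adjusted p = 0.099), 2 (0.098) or 3 (0.20), and *Nr1h3* without any of the 4.

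The *Klf15* samples of WT BAT had 46.2, 71.3, 40.5 and 74.2 CPM at ZT 6 and 54.4, 56.7, 61.7 and 61.8 CPM at ZT 10. They had 27.3, 14.1, 17.3 and 97.4 CPM at ZT 18 and 7.41, 11.1, 10.03 and 17.7 CPM at ZT 22. All light-phase samples lay above all dark-phase samples except replicate 4 at ZT 18. In FANKO BAT the values were 4.95, 6.75, 5.54 and 4.89 CPM at ZT 6, 10.1, 6.13, 6.12 and 7.35 CPM at ZT 10, 5.48, 4.42, 6.41 and 5.38 CPM at ZT 18, and 3.61, 3.01, 4.93 and 5.20 CPM at ZT 22. The ZT 10 samples lay above the ZT 22 samples and all other pairs of times overlapped, and no rhythm was called. The difference of the *Klf15* rhythms between genotypes was 1.30 (adjusted p = 0.21) with every library and 1.72 (adjusted p = 3.06e-05) without the 2 libraries that stood apart, an alternative added after the data had been seen.

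*Ppara* had 343, 289, 342 and 279 CPM in WT BAT at ZT 6, and 228, 235, 254 and 295 CPM at ZT 10. At ZT 18 it had 89.3, 130, 83.2 and 327 CPM, and at ZT 22 80.4, 96.3, 105 and 311 CPM. Replicate 4 was thus near the light-phase level at both dark-phase times. In FANKO BAT it had 24.6, 89.6, 118 and 78.8 CPM at ZT 6 and 76.3, 81.5, 87.7 and 163 CPM at ZT 10. At ZT 18 and ZT 22 all 8 FANKO samples were between 15.8 and 31 CPM, below all but replicate 1 at ZT 6 of the light-phase samples. Its rhythm in FANKO BAT was the larger by estimate, 2.40 (peak at 9.25 h, adjusted p = 6.74e-08), but the direct test of the difference missed the threshold (1.61, adjusted p = 0.037). Without the 2 libraries that stood apart the WT rhythm of *Ppara* was 1.61 (adjusted p = 1.99e-05).

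In FANKO BAT 2 of the 10 genes were rhythmic, *Ppara* and *Cebpa* (0.83, peak at 8.23 h, adjusted p = 0.00070), against 2.84% of all genes. *Cebpa* in WT BAT had 448 to 535 CPM at ZT 6 and 136 to 485 CPM at ZT 22, and in FANKO BAT 159 to 274 CPM and 120 to 167 CPM. A difference of rhythms between genotypes was called for 0 of the 10 genes in BAT by edgeR, DESeq2 and limma-voom (2.76% of all genes by edgeR), and for 2 at an FDR of 0.05, *Ppara* and *Esrra* (0.74, adjusted p = 0.038). At an unadjusted p under 0.05 there were 5, the others being *Nr1h3*, *Nrip1* and *Klf15*. A rhythm past the threshold in one genotype and not in the other is therefore not shown to differ.

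**Figure D4:**
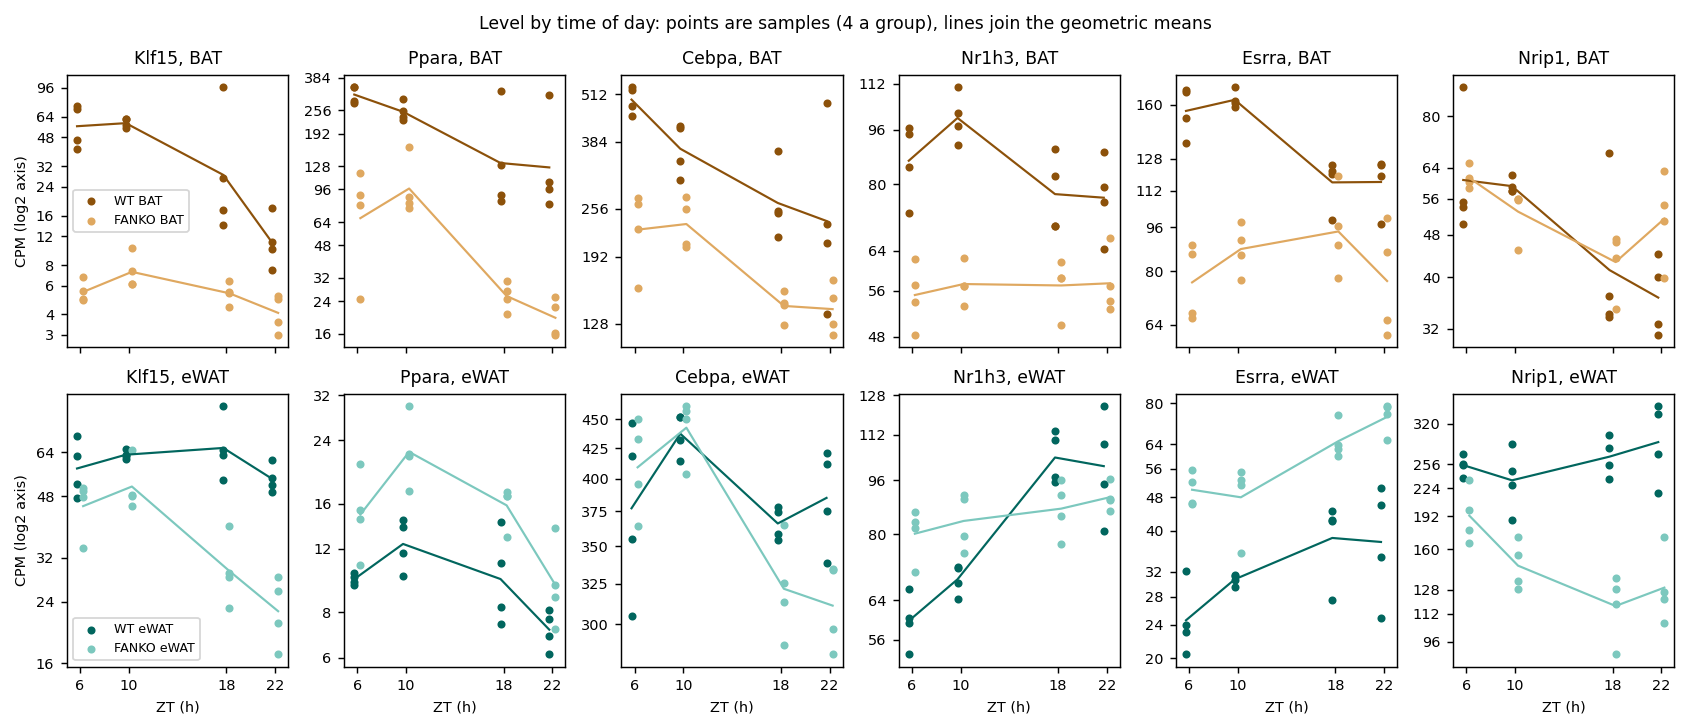
Level (CPM, log2 axis) of 6 regulators at ZT 6, 10, 18 and 22 in BAT (upper row) and eWAT (lower row), with a point per sample and lines through the geometric means of 4 samples. In WT BAT *Klf15* fell from 40.5 to 74.2 CPM at ZT 6 to 7.41 to 17.7 CPM at ZT 22, and in WT eWAT *Nr1h3* was at 53.3 to 71.5 CPM at ZT 6 and 10 and at 81.0 to 123 CPM at ZT 18 and 22.

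In WT eWAT 2 of the 10 genes were rhythmic (9.38% of all genes), and both peaked in the dark phase. *Nr1h3* had 66.5, 53.3, 60.3 and 59.2 CPM at ZT 6, 71.3, 71.5, 67.8 and 64.3 CPM at ZT 10, 113, 97.1, 110 and 95.4 CPM at ZT 18 and 108, 94.9, 123 and 81.0 CPM at ZT 22. All 8 dark-phase samples lay above all 8 light-phase samples, with a peak-to-trough difference of 0.82, a peak at 18.9 h and adjusted p = 1.75e-09. In FANKO eWAT its values were 70.3 to 91.2 CPM at ZT 6 and 10 and 77.5 to 96.3 CPM at ZT 18 and 22, which overlapped. The rhythms differed between genotypes (0.69, adjusted p = 0.0016), and *Nr1h3* was the 1 gene of the 10 for which they did in eWAT (1.15% of all genes). The call was lost without replicate 1 (adjusted p = 0.020), without replicate 2 (0.057) and with library size alone (0.15). In WT BAT the same gene peaked at 10.3 h.

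*Esrra* was rhythmic in WT eWAT (0.64, peak at 18.2 h, adjusted p = 0.0024) and in FANKO eWAT (0.62, peak at 21.5 h, adjusted p = 0.0024), where its level was higher at each time. In FANKO eWAT *Klf15* (1.19, peak at 9.97 h, adjusted p = 0.0093) and *Nrip1* (0.75, peak at 4.83 h, adjusted p = 0.0046) passed as well, 3 of 10 against 6.77% of all genes. All 3 were lost without replicate 1, without replicate 2 or without replicate 3. *Klf15* had 34.2 to 50.6 CPM at ZT 6 and 16.98 to 28.2 CPM at ZT 22 in FANKO eWAT, and 47.5 to 71.4 CPM and 49.4 to 60.9 CPM in WT eWAT.

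The 2 genes whose pattern over the 16 group means of log2 CPM was most like that of each regulator were sought among 11729 protein-coding genes. For *Ppara* these were *Srl* (r = 0.974) and *Ppargc1b*, the coactivator PGC-1β (r = 0.972). For *Ebf1* they were *Adrb3*, the β3-adrenergic receptor of adipocytes (r = 0.951), and *Arhgap29* (r = 0.950). For *Esrra* they were *Tbrg4* (r = 0.983) and *Mul1* (r = 0.980), both of mitochondria, for *Rxra* *Trhde* (r = 0.992) and *Fmod* (r = 0.991), and for *Nrip1* *Esyt1* (r = 0.981) and *Eln* (r = 0.979). *Pparg* was closest to *Herc1* (r = 0.947) and *Ascc1* (r = 0.939), *Cebpa* to *Bag4* (r = 0.955) and *Orc6* (r = 0.952), *Klf15* to *Porcn* (r = 0.956) and *Fam161a* (r = 0.954), and *Nr1h3* to *Mmp19* (r = 0.930) and *Asns* (r = 0.927). *Ppard* had the weakest matches, *Nfic* (r = 0.822) and *Pdgfrb* (r = 0.802). The points share depot and genotype, so that high values are common for genes that separate these groups.

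Genes that these regulators are known to act on, and other regulators of the same kinds, were taken from lists. Among 17 adipocyte targets of PPARγ, 17 were lower in FANKO BAT (median log2 difference -0.98), and 12 still were with library size alone. They included *Adipoq* (adiponectin, -1.34) and *Cidea* (a lipid droplet protein, -1.35). In eWAT, where *Pparg* itself did not pass, 7 targets were higher and 6 lower (median 0.06, or -0.19 with library size alone). *Cidea*, which is also a marker of brown adipocytes, rose 8.16-fold there (log2 3.03, SE 0.16), while *Adipoq* (-0.67) fell. *Adipoq*, *Plin1*, *Cidec* and *Lipe* of this list are also the adipocyte markers.

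Of 17 fatty acid oxidation targets of PPARα and PPARδ, 14 were lower and 3 higher in FANKO BAT (median -1.59). *Acaa2* (-2.49, SE 0.08) and *Acadm* (-2.33, SE 0.08) of mitochondrial β-oxidation were among those that fell. In eWAT 12 were higher and 1 lower (median 0.52), including *Acadm* and *Acaa2* (0.30 each), both of which lost the call with library size alone. That scaling gave 3 higher and 11 lower in BAT, and 9 higher and 3 lower in eWAT. Of 18 mitochondrial targets of ERRα, 18 were lower in FANKO BAT (median -1.52) and 17 higher in FANKO eWAT with none lower (median 0.81). In eWAT RLE factors gave 17 higher and 1 lower, and library size alone 16 and 1, while 18 stayed lower in BAT. *Ndufs1* of complex I went from -1.73 in BAT to 0.77 in eWAT, whereas *Sirt3*, a mitochondrial NAD+-dependent deacylase, fell by 1.55 in BAT and had -0.18 in eWAT (adjusted p = 0.014). *Acadm* is in both lists. For comparison, 67.0% of all genes passed in BAT and 50.3% in eWAT, with median differences of 0.00 and -0.02.

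The 12 targets of LXR were mixed in BAT, with 2 higher and 5 lower (median -0.20, and 0.39 with 6 higher and 1 lower under library size alone). *Abcg1*, a sterol exporter that macrophages also express, rose 7.69-fold in FANKO BAT (log2 2.94, SE 0.12) beside the rise of macrophage markers, while *Smpdl3a* fell by 0.91. The part of macrophages in the *Abcg1* rise was not tested. In eWAT 7 were higher and 1 lower (median 0.67), among them *Srebf1*, a regulator of lipid synthesis (1.22, SE 0.12), and *Abcg1* (0.99). Of 8 amino acid and glucose genes linked to KLF15, 6 were lower and none higher in FANKO BAT (median -0.89). *Bcat2* (-2.001) and *Bckdha* (-1.51) of branched-chain amino acid breakdown and *Slc2a4*, the insulin-responsive glucose transporter (-0.85), were among them. In eWAT 4 were higher and 2 lower (median 0.05), with *Slc2a4* 2.28-fold higher (log2 1.19, SE 0.08). *Bckdha* was called higher in eWAT at 0.27 but lost the call in 9 other settings. For the genes linked to KLF15, RLE factors gave 1 higher and 6 lower in BAT. Library size alone gave 1 higher and 5 lower in BAT, and 3 and 3 in eWAT. Over all genes 67.0% passed in BAT (33.9% lower) and 50.3% in eWAT.

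**Figure D5:**
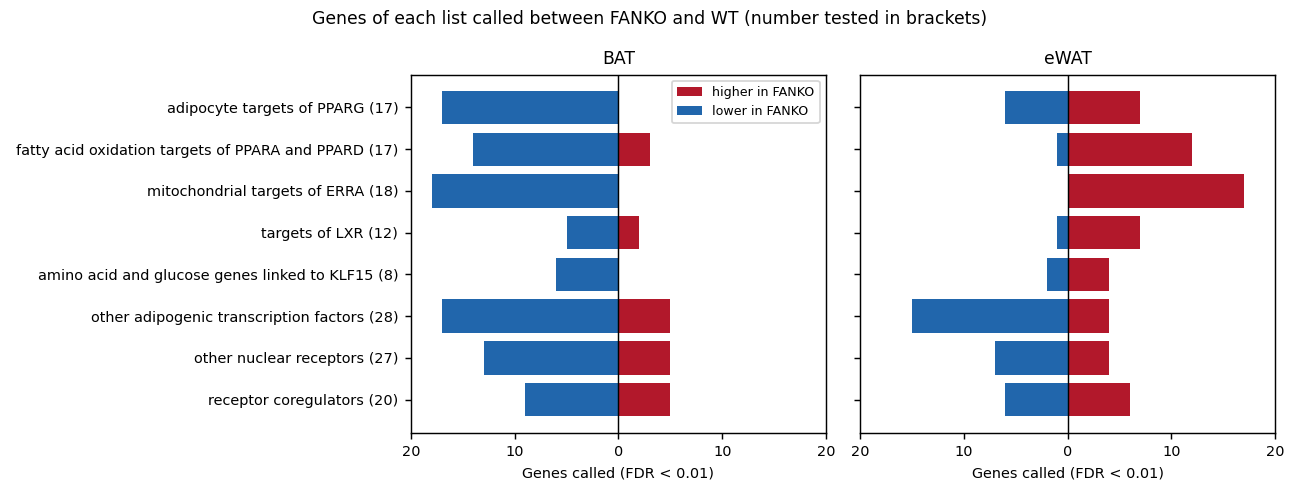
Number of genes of each list called higher (right of 0) or lower (left of 0) in FANKO than in WT mice at an FDR of 0.01, in BAT and eWAT, with the number tested in brackets. Of the 18 mitochondrial targets of ERRα, 18 were lower in BAT and 17 higher in eWAT.

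Of 28 other adipogenic transcription factors, 17 were lower and 5 higher in BAT (median -0.57), and 15 lower and 4 higher in eWAT (median -0.22). *Ebf2*, a brown fat factor related to *Ebf1*, was lower in BAT (-1.70, SE 0.06) and in eWAT (-0.48, SE 0.06), and *Stat5a* was lower in BAT (-1.11). *Gata3*, also a factor of T cells, was higher in BAT (4.36, SE 0.25) beside the rise of lymphocyte markers, whose part was not tested. Of 27 other nuclear receptors tested, of 30 listed, 13 were lower and 5 higher in BAT (median -0.21) and 7 lower and 4 higher in eWAT (median -0.07). The thyroid hormone receptors *Thra* (-1.08) and *Thrb* (-1.25) fell and *Nr4a3* rose (3.49, SE 0.22) in BAT. Of 20 coregulators 9 were lower and 5 higher in BAT (median -0.16), and 6 were lower and 6 higher in eWAT (median -0.02). *Ppargc1b* fell in BAT (-2.07, SE 0.12) and rose in eWAT (0.56, SE 0.13), the same directions as *Ppara* and *Esrra*, with the eWAT call lost without replicate 3 (adjusted p = 0.011) and with library size alone (adjusted p = 0.037). *Ctbp1* (-0.52 and 0.23 in BAT and eWAT) changed in opposite directions, and *Hdac3* fell in BAT (-0.84). With library size alone the counts in BAT were 12 higher and 8 lower for the transcription factors, 13 and 6 for the nuclear receptors and 15 and 2 for the coregulators, the *Ctbp1* differences changed sign, and the 3 medians were above 0. In eWAT they were 3 higher and 21 lower, 1 and 13, and 0 and 12 in the same order. Over all genes 67.0% passed in BAT and 50.3% in eWAT, and the shares of the nuclear receptors and coregulators that passed in BAT were near that background.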

How the data were processed

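RNA of 64 samples was sequenced by the authors from stranded total RNA libraries depleted of ribosomal RNA (38-bp paired-end reads). Per the submitters' processing notes, reads were checked with FastQC 0.11.5 and MultiQC 1.2, aligned with STAR 2.5.3a to GRCm38.p5 with GENCODE version 15 and counted with featureCounts 1.5.3. The authors deposited whole-number counts per gene without normalization or pooling. The strand and multi-mapping options of the counting are not given in the sources used here.

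Counts were analysed as deposited in R 4.3.3 with edgeR 4.0.16. The filterByExpr function (minimum count 10, minimum total 15) kept 20249 genes and left out 32387, and libraries were scaled by TMM. All samples entered a quasi-likelihood model of 12 coefficients, in which each depot and genotype had its own mean and its own 24 h curve (sine plus cosine), and a second model with 1 mean per group gave the tests at single time points. Benjamini-Hochberg adjustment covered every gene tested, and the FDR limit was 0.01, as in the study. Log2 CPM used a prior count of 2. DESeq2 1.42.0, limma-voom (limma 3.58.1), RLE factors, library size alone, other filters, separate fits, replicate blocks and leaving out each replicate number were alternatives, and the data had been seen before 2 more were added, covariates from muscle and epididymis markers and the removal of 2 libraries. The model was tested on simulated data. Values and figures were made with Python 3.11.15, numpy 2.4.6, pandas 2.3.3 and matplotlib 3.10.9.

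Identifiers were matched to symbols, coordinates and exon lengths of GENCODE M21 on GRCm38 (52489 of 52636 with a symbol), and promoters came from RefSeq on GRCm38.p6 (all 10 genes matched). In this build the 10 genes lie at chr6:115360951-115490399 (*Pparg*), chr15:85734983-85802819 (*Ppara*), chr17:28232700-28301474 (*Ppard*), chr7:35119293-35121928 (*Cebpa*), chr2:27676440-27762957 (*Rxra*), chr2:91184061-91202834 (*Nr1h3*), chr19:6910977-6921813 (*Esrra*), chr16:76287400-76373827 (*Nrip1*), chr6:90462576-90475238 (*Klf15*) and chr11:44617317-45008091 (*Ebf1*), each counted over its exons. *Cebpa* shares 51 exon bases with an antisense gene and *Nr1h3* 34 with a gene on its own strand.

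The 10 genes and all lists were chosen with earlier results of these data known. Genes named beyond the 10 were *Nampt*, the 3 of each list with the smallest p in BAT or eWAT, and the 2 most alike in pattern (mean log2 CPM of at least 1), but some genes so chosen are not reported here. The labels do not say whether samples came from separate animals or whether both depots came from the same mice, so p values measure the spread between these samples. No pair of replicates agreed within sampling noise (lowest mean chi-square per gene 6.17 over 96 pairs, where 1 is sampling noise).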

Additional observations from a re-analysis of the deposited data

Results flagged for a closer look

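By the direct test, 8 of the 10 genes responded differently to the loss of *Nampt* in BAT and in eWAT, where 64.3% of all genes did. The effect in BAT minus that in eWAT, on the log2 scale, was -2.84 for *Ppara*, -1.98 for *Klf15*, -1.53 for *Esrra*, -0.81 for *Cebpa*, -0.67 for *Pparg*, -0.65 for *Nr1h3*, 0.27 for *Rxra* and 0.93 for *Nrip1*. With library size alone *Cebpa*, *Pparg* and *Nr1h3* changed sign and did not pass. The rhythm of *Nr1h3* in eWAT differed between genotypes by 0.69 (peak to trough, log2).

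A single sample lay far from the other 3 of its group for 9 of the 160 sets of 4 values of the 10 genes, and chance alone marks about 1 in 20. Low samples were *Ppara* in FANKO eWAT at ZT 18 (replicate 2, 12.9 CPM), *Esrra* in WT eWAT at ZT 18 (replicate 4, 27.5 CPM) and in FANKO eWAT at ZT 10 (replicate 3, 35.4 CPM), *Nrip1* in FANKO BAT at ZT 10 (replicate 3, 45.0 CPM), *Klf15* in FANKO eWAT at ZT 6 (replicate 3, 34.2 CPM) and *Ebf1* in FANKO eWAT at ZT 22 (replicate 3, 113 CPM). High samples were *Rxra* in FANKO BAT at ZT 6 (replicate 2, 112 CPM) and *Nrip1* in WT BAT at ZT 6 (replicate 2, 90.7 CPM) and at ZT 18 (replicate 4, 68.2 CPM). Replicate 4 at ZT 18 of WT BAT and of WT eWAT are the libraries that stood apart over all genes.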

How the results depend on the processing

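Of the recomputed values for single genes, 2742 kept direction and side of the threshold, 115 lost and 37 gained the call, and 28 changed sign. Library size alone gave, as FANKO minus WT in BAT, *Nr1h3* 0.0093, *Ppard* 0.52, *Ebf1* 0.0645 and *Ctbp1* 0.0691, in eWAT *Pparg* -0.21, *Nr1h3* -0.17 and *Ctbp1* -0.0141, between depots in WT *Pparg* -0.11 and *Nr1h3* -0.67 and in FANKO *Pparg* 0.0548, and for the depot by genotype difference *Pparg* 0.17, *Nr1h3* 0.18, *Cebpa* 0.0093 and *Ebf1* 0.65. In BAT it gave *Ebf1* 0.0453 at ZT 6 and 0.19 at ZT 22, *Nr1h3* 0.16 at ZT 18 and 0.17 at ZT 22, and *Esrra* 0.0218 at ZT 22. It moved the median of all genes by 0.59 in BAT, -0.25 in eWAT, -0.75 between depots in WT and 0.09 in FANKO. RLE factors and DESeq2 each gave *Pparg* -0.0180 in eWAT and 0.0380 between depots in FANKO. Leaving out each replicate number gave -0.182 to 0.0283 for *Ppard* in BAT, -0.0536 to 0.107 for *Pparg* in eWAT and -0.108 to 0.0864 for *Pparg* between depots in FANKO. With the covariates the depot difference in FANKO was 0.0777 for *Pparg* and -0.0649 for *Ppard*. In the main test *Ppard* in BAT, *Pparg* in eWAT, and *Pparg* and *Ppard* between depots in FANKO did not pass. *Pparg* between depots in WT (0.63) and its depot by genotype difference (-0.67) did pass. So did *Nr1h3* and *Ebf1* in BAT and the depot by genotype differences of *Nr1h3* and *Cebpa*. Library size alone changed the sign of all of these calls.

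Of the recomputed counts of genes called, 190 stayed within 1.5 times the count and 29 did not. At an FDR of 0.05, 2 differences of rhythm were called in BAT, 2 in eWAT and 5 rhythms in FANKO eWAT. Library size alone left 15 calls at single times in BAT, 0 differences of rhythm in eWAT, 1 rhythm in FANKO eWAT and 1 in WT eWAT. Separate fits gave 2 differences in eWAT, 1 rhythm in FANKO BAT and 6 in FANKO eWAT, and the covariates 1 in FANKO eWAT. Without both libraries that stood apart there was 1 difference in BAT and 5 rhythms in FANKO eWAT. Leaving out each replicate number gave 1 to 5 rhythms in WT BAT, 0 to 4 in FANKO eWAT, 1 to 2 in WT eWAT, 1 to 2 in FANKO BAT, 0 to 1 differences in each depot, and 21 to 28 calls at single times in BAT and 7 to 11 in eWAT. The cause of these changes was not tested.

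A replicate block by number left 7 genes called in BAT and 5 in eWAT and changed no other call, and a block across depots changed none of 30 values. Deviations of same-numbered samples had median correlations of 0.0517 to 0.0607, against -0.0214 to -0.0196 for samples of other numbers. Deviations from a group mean cancel out within the group, so the second set of values follows largely from the first. Same-numbered pairs were over 0.1 in 6 of 32, 10 of 32 and 30 of 96 cases. These correlations were weak and do not settle whether the numbers pair the samples. The median of 0.0607 was that of pairs across time points. The mitochondrial share of counts also varied with replicate number. In WT eWAT it was 3.88% to 6.80% in replicate 1 and 8.49% to 10.7% in replicate 4. In FANKO eWAT these replicates overlapped (6.11% to 11.8% against 10.5% to 14.6%). In BAT of both genotypes replicate 3 was highest at ZT 10, 18 and 22 but not at ZT 6. The source of this variation was not tested.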
